A study of Mus musculus with 2 samples.

Results

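The 44 genes described here are antiviral genes of the type I interferon response in the mouse, among them sensors of viral nucleic acid, enzymes that act on viral RNA, proteins that hold back viral particles and regulators of the response itself. They were selected by gene symbol, from general knowledge of the response and with the clodronate to vehicle ratios of these same 2 libraries in view, so the levels and ratios below are a description and no test was made of them. All 44 symbols were found, each on 1 locus, among the 22886 genes listed for both libraries, and all 44 averaged 1 RPKM or more across the libraries, as did 10982 genes in all, called the genes kept.

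The study sequenced polyadenylated RNA of sorted cells, called aerobic tumor cells in its labels, from subcutaneous tumors of Lewis lung carcinoma (LLC), a mouse lung tumor line transplanted under the skin. Both libraries came from C57BL/6 wild type mice, 1 from vehicle injection and 1 from clodronate injection. Clodronate is a bisphosphonate that kills phagocytes when they take it up in liposomes, and the labels give no formulation, dose, schedule, age, sort markers or number of pooled mice. The difference between the libraries has no replicate check, and clodronate, the mouse, the sort and the library preparation cannot be told apart as its source.

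Type I interferons are secreted when a cell senses foreign or misplaced nucleic acid. They bind the receptor IFNAR on the same and on neighboring cells, where the kinases JAK1 and TYK2 phosphorylate STAT2. STAT2 and IRF9 are parts of the complex ISGF3, which binds the interferon-stimulated response element in the promoters of antiviral genes, and macrophages are known both to produce interferon and to respond to it strongly.

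Levels are given in RPKM, in which the reads of a gene are divided by its transcript length and by the library size. For log2 ratios 1 RPKM was added to both values and clodronate was divided by vehicle, which shrinks the ratios of low genes. RPKM summed to 601579 in the vehicle and 596143 in the clodronate library, and over all genes kept the log2 ratio had a median of 0.019. The files give no read totals. If the smallest step between low values is 1 read, the vehicle library held about 12900000 and the clodronate library about 10500000 reads on the loci. Of 256 and 448 low loci with transcripts over 2000 nt, 84.4% and 84.2% lay within 0.15 reads of a whole number. The step was taken from these same low values, so loci at 1 step are near whole by construction and the shares do not test it. With a step of 1 read the 41 members with a transcript length rested on between 27 reads (Isg20, clodronate library) and 7290 reads (Lgals3bp, clodronate library). The exception was Ifi44, which was listed at 0 in the vehicle library. Of 5 epithelial markers Epcam and Krt19 were at 0 in each library, and Cdh1 (6.14 and 6.44 RPKM), Krt8 (3.67 and 1.33 RPKM) and Krt18 (2.97 and 3.19 RPKM) were low in the cells labelled as tumor cells. The 10 macrophage markers summed to 26098 RPKM in the vehicle library and 24770 RPKM in the clodronate library. The labels also hold a growth protocol for a blood progenitor line. Of 4 progenitor markers Gata1 was at 0 in each library and Kit, Cd34 and Gata2 were detected, with a sum of 5.41 RPKM in the vehicle library and 2.62 RPKM in the clodronate library.

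Most of the interferon-stimulated genes were higher in the clodronate library. Of the 44 genes 35 were higher, which is 79.5% against 51.6% of all genes kept, and their median log2 ratio was 0.78. At least 3-fold higher were 9 genes (20.5% against 2.86% of all genes kept), namely Rtp4, Ifit1, Ifi44, Zbp1, Oasl1, Ddx60, Ifit2, Oas3 and Mx1. None was at least 3-fold lower, against 2.32% of all genes kept. Oas3 was below 3-fold once ratios were corrected for GC content and transcript length (log2 ratio 1.41), and Mx1 once they were centred on their median (1.57). Ifi44 reached a mean of 1 RPKM through the clodronate library alone, and without it 8 of 43 genes (18.6%) were at least 3-fold higher. With 2-fold in place of 3-fold, 18 genes were higher (40.9% against 6.95%) and 0 were lower, against 6.77%. That 0 rests on the 1 RPKM added to both values, since Parp9 was 2.02-fold lower in plain RPKM. With a pseudocount of 0.1 its log2 ratio was -1.01. Because the ratios themselves were in view when the genes were chosen, these shares describe the choice as well as the libraries. Summed over the 44 genes the level was 1151 RPKM in the vehicle library and 2023 RPKM in the clodronate library, a ratio of 1.76. Much of the sum lay in Ifi27l2a, and without it the sums were 873 and 1397 RPKM, a ratio of 1.60. Since these are bulk libraries, fewer cells of a type and less RNA per cell cannot be told apart.

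**Figure D1:**
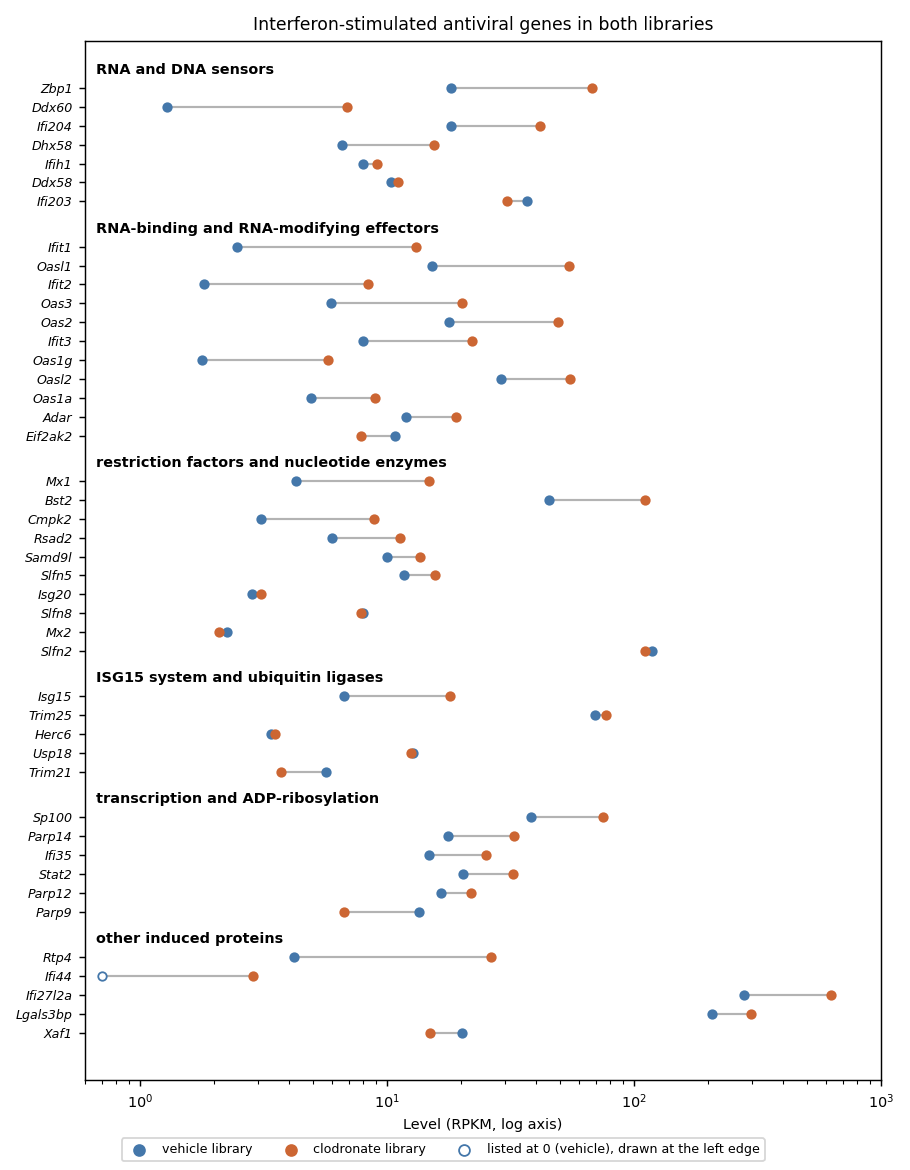
Level of each of the 44 interferon-stimulated genes (RPKM, log axis) in the vehicle library (blue) and the clodronate library (orange), grouped by role, with 1 library per condition and therefore no error bars. Most orange points lie to the right of the blue ones, the widest gaps between measured levels are those of Rtp4, Ddx60, Ifit1 and Ifit2, and in 9 genes, among them Eif2ak2 and Parp9, the orange point lies to the left. Ifi44, listed at 0 in the vehicle library, is drawn as an open point at the left edge.

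The promoters of these genes were searched for the core of the interferon-stimulated response element, the letters GAAANNGAAA on either strand, in the RefSeq entries of GRCm38.p6, which hold 250 bases before and 50 bases after each start of transcription. An entry was found for 33 of the 44 genes. The core occurred in 17 of them (51.5%), compared with 3.99% of the 27025 genes with an entry, a count that uses no RPKM value, although the members were chosen as known interferon targets. The core was not particular to the members. Of 94 other genes of the interferon pathway with an entry, described below, 31 had it (33%). Among these were 10 of 18 interferon genes (55.6%), 8 of 10 interferon-gamma targets (80%) and 0 of 8 receptors and kinases. The windows below are those of the 6 members with the core that had the highest log2 ratios at a mean of at least 10 RPKM, and for contrast that of Xaf1, which had no core and, at that level, the lowest ratio of a member with an entry. Each holds 80 bases that end before the start, written 5′ to 3′ on the strand of the gene, with the bases of a core in capitals. A core on the opposite strand reads as TTTCNNTTTC.
Oas3 (chr5:120777680-120777759, minus strand): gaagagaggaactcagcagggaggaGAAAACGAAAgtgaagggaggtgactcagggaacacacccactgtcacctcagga
Ifit3 (chr19:34583348-34583427, plus strand): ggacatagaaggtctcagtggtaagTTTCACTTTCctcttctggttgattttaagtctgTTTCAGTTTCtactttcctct
Isg15 (chr4:156200842-156200921, minus strand): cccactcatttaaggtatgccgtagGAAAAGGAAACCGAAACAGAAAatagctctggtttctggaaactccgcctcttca
Bst2 (chr8:71537548-71537627, minus strand): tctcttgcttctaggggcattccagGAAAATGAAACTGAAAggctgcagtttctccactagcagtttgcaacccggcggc
Stat2 (chr10:128270251-128270330, plus strand): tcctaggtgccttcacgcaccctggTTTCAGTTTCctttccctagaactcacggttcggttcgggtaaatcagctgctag
Slfn5 (chr11:82951922-82952001, plus strand): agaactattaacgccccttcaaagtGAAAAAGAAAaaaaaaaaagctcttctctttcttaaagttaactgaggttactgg
Xaf1 (chr11:72301549-72301628, plus strand): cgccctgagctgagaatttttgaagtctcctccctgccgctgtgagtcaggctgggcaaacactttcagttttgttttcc

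In Isg15 there were 3 overlapping cores and in Bst2 there were 2, so that the half-sites form an unbroken run. Ifit3 carried 2 separate cores on the opposite strand, while Oas3, Stat2 and Slfn5 carried 1 each. The core of Slfn5 runs on into a stretch of the letter a. Of 26 distinct matches in the members 21 lay before the start (80.8%, against 88.4% of the 1160 distinct matches in all genes with an entry) and 20 of them within 160 bases of it (76.9% against 52.0%). In all, 13 members had a match before the start. In Ifih1, Ddx58, Trim21 and Eif2ak2 the match lay only after the start. Within the members, the 17 genes with a core had a median log2 ratio of 0.75 and the 16 with an entry and no core 0.58. The 13 with a core before the start had a median of 1.27, with 11 above 0, and the 11 members without an entry a median of 1.15, with 7 at least 2-fold higher. All these ratios were in view when the members were chosen, and the split by position depends on the annotated starts. No median for a core before the start was taken over all genes kept, so the 1.27 has no such value beside it. Across all genes kept the medians were 0.013 for the 328 genes with a core and 0.022 for the 8038 without, nearly the same value. A match of letters is a description and not a bound site. The 11 genes without an entry were Dhx58, Zbp1, Ifi204, Oas2, Mx1, Mx2, Usp18, Parp9, Parp14, Rtp4 and Ifi27l2a.

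**Figure D2:**
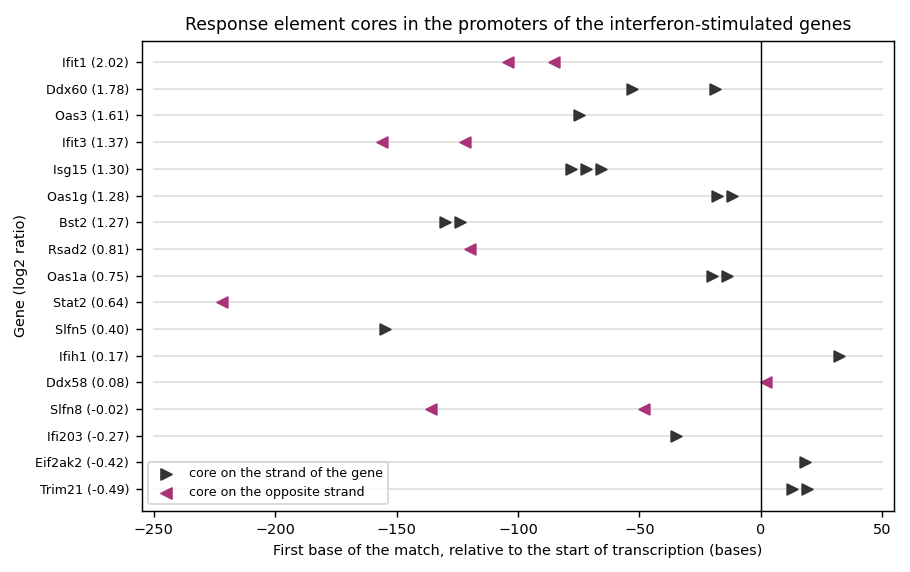
Position of each response element core (horizontal axis, bases from the start of transcription, which is the vertical line) in the promoters of the 17 members that hold one, ordered by log2 ratio, with right-pointing marks for the strand of the gene and left-pointing marks for the opposite strand. The marks of the upper rows, from Ifit1 to Slfn5, all lie left of the line, as do those of Slfn8 (-0.02, 1 site seen from both of its starts) and Ifi203 (-0.27), while the 4 genes with marks only right of it have log2 ratios between -0.49 and 0.17. The 16 members with an entry and no core, which are not drawn, have log2 ratios between -0.42 and 1.95.

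The sensors of nucleic acid were split. Ddx58 (RIG-I) and Ifih1 (MDA5), the helicases that detect viral RNA in the cytoplasm and signal through MAVS, differed little between the libraries. Ddx58 stood at 10.4 RPKM in the vehicle library and 11.1 RPKM in the clodronate library, and Ifih1 at 8.03 and 9.15 RPKM. Dhx58 (LGP2) belongs to the same helicase family but lacks the signalling domain. It had 6.60 RPKM in the vehicle library and 15.5 RPKM in the clodronate library, a log2 ratio of 1.12. Zbp1, a sensor of left-handed nucleic acid that can start necroptosis, was at 18.2 and 67.6 RPKM, a log2 ratio of 1.84. Ddx60, a helicase described as aiding RIG-I signalling, was low in both libraries, at 1.29 and 6.87 RPKM. Ifi203 and Ifi204 are DNA-binding proteins of the HIN-200 family and lie in 1 cluster on chromosome 1. Ifi204 was higher in the clodronate library (18.2 and 41.5 RPKM), whereas Ifi203 was lower (37.0 and 30.5 RPKM, log2 ratio -0.27). Of the 7 sensors 6 were higher (85.7%), 4 at least 2-fold and 2 at least 3-fold, with a median log2 ratio of 1.12. The shares of all genes kept were 51.6% higher, 6.95% at least 2-fold and 2.86% at least 3-fold.

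The effectors that bind or modify RNA had the highest median log2 ratio of the 6 groups, 1.37 over 11 genes. Higher were 10 of them (90.9% against 51.6% of all genes kept). At least 2-fold higher were 7 (6.95% of all genes kept) and at least 3-fold higher 4 (2.86% of all genes kept). The Ifit proteins bind viral RNA through its end and stop its translation. Ifit1 was at 2.47 RPKM in the vehicle library and 13.1 RPKM in the clodronate library, a log2 ratio of 2.02. Ifit2 was at 1.82 and 8.35 RPKM, a log2 ratio of 1.73, and Ifit3 at 7.96 and 22.1 RPKM, a log2 ratio of 1.37. All 3 lay on the same side, with the lowest ratio in the gene of the highest level. The oligoadenylate synthetases make the short adenylate chains that switch on RNase L. Oas3 had 5.93 RPKM in the vehicle library and 20.2 RPKM in the clodronate library and Oas2 had 17.8 and 49.4 RPKM, with log2 ratios of 1.61 and 1.42. Oas1g (1.78 and 5.76 RPKM) and Oas1a (4.91 and 8.97 RPKM) are close copies of each other, and reads can have been split between them. The synthetase-like genes are relatives of this family, and Oasl1 is known in the mouse as a brake on the translation of Irf7. Oasl1 was at 15.2 RPKM in the vehicle library and 54.8 RPKM in the clodronate library, a log2 ratio of 1.79, while Oasl2 stood higher in the vehicle library, at 29.0 RPKM, and reached 55.3 RPKM. In the clodronate library the pair thus had nearly the same level. Adar, which converts adenosine to inosine in double-stranded RNA and keeps own RNA from being sensed, was at 11.9 and 19.0 RPKM. Eif2ak2 (PKR), which shuts down translation on double-stranded RNA, was the exception of the group, with 10.8 RPKM in the vehicle library and 7.83 RPKM in the clodronate library, a log2 ratio of -0.42.

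The restriction factors and nucleotide enzymes ranged widely, with 7 of 10 higher, 3 at least 2-fold, 1 at least 3-fold and a median log2 ratio of 0.40. For all genes kept these shares were 51.6%, 6.95% and 2.86%. The Mx proteins are dynamin-like GTPases that, in mice with intact copies of the genes, trap viral components, Mx1 in the nucleus and Mx2 in the cytoplasm. The RNA levels of these C57BL/6 mice do not show whether working Mx protein was made. Mx1 had 4.28 RPKM in the vehicle library and 14.8 RPKM in the clodronate library, a log2 ratio of 1.59, and Mx2 had 2.26 and 2.09 RPKM. The pair lies in the same stretch of chromosome 16, and Mx2 was at nearly the same level in both libraries. Bst2 (tetherin), which anchors budding virus to the cell surface, was at 45.4 and 111 RPKM and was the only member above 100 RPKM in the clodronate library and below it in the vehicle library. Rsad2 (viperin) makes a chain-terminating nucleotide from CTP, and Cmpk2, its neighbor on chromosome 12, phosphorylates pyrimidine nucleotides in mitochondria. Rsad2 had 6.02 and 11.3 RPKM, and Cmpk2 had 3.09 and 8.84 RPKM, with log2 ratios of 0.81 and 1.27. The remaining genes lay closer together in the libraries. Samd9l, a growth-restricting factor, had 10.02 and 13.7 RPKM. Isg20, an RNA exonuclease, had 2.84 and 3.10 RPKM. The Schlafen genes, which act on tRNA and on lymphocyte quiescence, gave 11.7 and 15.7 RPKM for Slfn5, 8.01 and 7.87 RPKM for Slfn8 and 119 and 111 RPKM for Slfn2.

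In the ISG15 system Isg15 itself was the only gene at least 2-fold higher. Isg15, a ubiquitin-like protein that is attached to other proteins during the response, was at 6.69 RPKM in the vehicle library and 18.0 RPKM in the clodronate library, a log2 ratio of 1.30. Herc6, the main ligase that attaches it in the mouse, had 3.40 and 3.54 RPKM. Usp18, the protease that removes it and also blocks the receptor subunit IFNAR2, had a log2 ratio of -0.03. Trim25 and Trim21 are ubiquitin ligases, Trim25 of the RIG-I pathway and Trim21 a cytoplasmic antibody receptor. Trim25 had 69.6 and 76.7 RPKM, and Trim21 had 5.65 and 3.73 RPKM, a log2 ratio of -0.49. Of the 5 genes 3 were higher (60% against 51.6% of all genes kept), 1 at least 2-fold, with a median of 0.04.

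Among the members that act in transcription or ADP-ribosylation 5 of 6 were higher (83.3% against 51.6% of all genes kept). Of the 6 genes 0 reached 2-fold, against 6.95% of all genes kept, and the median log2 ratio was 0.69. Stat2, the part of ISGF3 that is peculiar to type I and type III interferon, was at 20.4 RPKM in the vehicle library and 32.4 RPKM in the clodronate library. Sp100, a component of nuclear bodies, had 38.2 and 75.2 RPKM, which is just short of 2-fold on the log2(RPKM + 1) scale. Ifi35, a leucine zipper protein, had 14.8 and 25.3 RPKM. The Parp members are ADP-ribosyltransferases, and Parp9 works with the ubiquitin ligase Dtx3l. Parp14 was at 17.6 and 32.7 RPKM and Parp12 at 16.5 and 21.9 RPKM. Parp9 had the lowest ratio of all 44 genes, with 13.5 RPKM in the vehicle library and 6.69 RPKM in the clodronate library, a log2 ratio of -0.92. The deposited locus of Parp9 is the same as that of Dtx3l, and Dtx3l itself was at 8.66 and 11.0 RPKM, so how reads were divided between the overlapping genes bears on both values.

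The last group joins induced proteins of other or less settled roles. Higher were 4 of 5 (80% against 51.6% of all genes kept), with a median log2 ratio of 1.17. Rtp4, a chaperone of receptors that also binds viral RNA, had the highest ratio of all members, with 4.18 RPKM in the vehicle library and 26.3 RPKM in the clodronate library, a log2 ratio of 2.40 and percentile 99.2 of all genes kept. Ifi27l2a, a small mitochondrial protein, was the most abundant member in both libraries, at 278 and 625 RPKM. Lgals3bp, a secreted glycoprotein that binds galectins, was next at 208 and 298 RPKM. Xaf1, which opposes inhibitors of apoptosis, was lower in the clodronate library, at 20.2 and 14.9 RPKM. Ifi44 was at 2.86 RPKM in the clodronate library and listed at 0 in the vehicle library, so no fold is given. A listing at 0 was not particular to Ifi44, since 137 genes were listed at 0 in the vehicle library and at 2 RPKM or more in the clodronate library, and 71 genes the other way round. Without Ifi44 the median of the remaining 43 genes was 0.75.

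The spread of ratios depends on the level, and the members were therefore set beside genes of the same level. This is a description, because the members were chosen with these ratios in view. Part of all genes in each class lies above its limit by construction. Between 5 and 20 RPKM, where 22 members lay, the central 95% of all genes ended at a log2 ratio of 1.37, and 6 members lay above it. Between 20 and 100 RPKM the limit was 1.04, and 5 of 12 members lay above it. Below 5 RPKM the limit rose to 2.07 and 0 of 7 members exceeded it, among them Ifi44 and Ddx60, both at least 3-fold higher. Of all genes in this lowest class 6.18% were at least 3-fold higher, against 1.50% and 1.08% in the classes from 5 and from 20 RPKM and 3.89% above 100 RPKM. In that highest class the limit was 7.82, and 0 of 3 members lay above it. That limit is far above the highest log2 ratio of any member, 2.40, so the 0 says little about these 3.

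**Figure D3:**
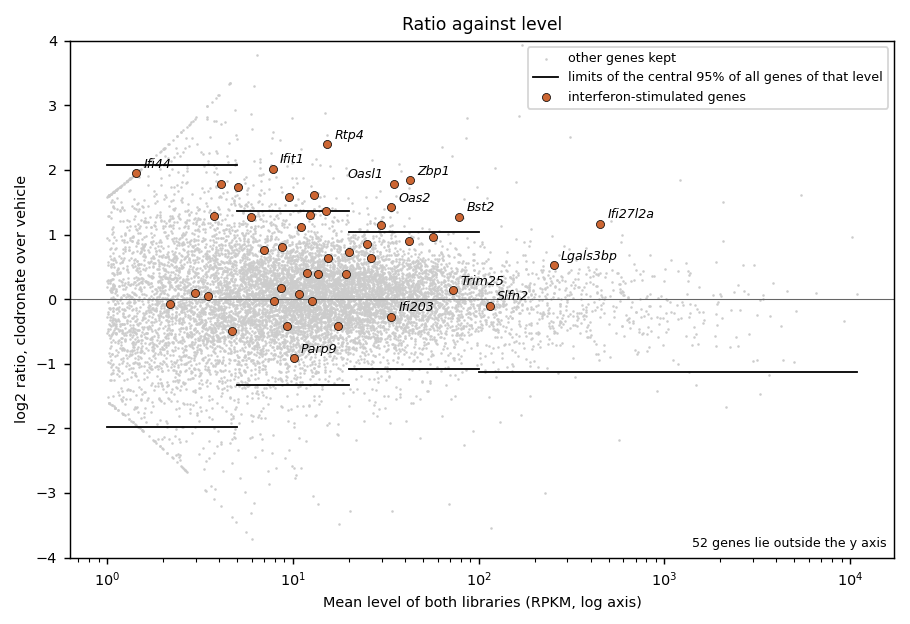
Log2 ratio of clodronate over vehicle (vertical axis) against the mean level of both libraries (RPKM, log axis) for the members (orange) and all other genes kept (grey), with black lines at the limits of the central 95% of all genes in each class of level. Between 5 and 100 RPKM 11 members, which were chosen with these ratios in view, lie above the upper lines and 0 below the lower ones. Outside the axis lie 52 genes and the upper limit of the highest class.

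Many members lie side by side in the genome, and their neighbors were examined in the coordinates of the files (mm9). On chromosome 19 Ifit2 (34625184 to 34651024), Ifit3 (34658019 to 34663472) and Ifit1 (34715379 to 34724499) enclose Gm14446, I830012O16Rik and 2010002M12Rik. I830012O16Rik is the symbol under which Ifit3b is listed. None of these 3 enclosed genes exceeded 0.83 RPKM in either library. Gm14446 (0.830 and 0.088 RPKM) and 2010002M12Rik (0.390 and 0.028 RPKM) were lower in the clodronate library, and I830012O16Rik was at 0 and 0.049 RPKM. In the Oas cluster of chromosome 5, Oas1c had 3.59 RPKM in the vehicle library and 2.09 RPKM in the clodronate library and Oas1b had 3.51 and 4.35 RPKM, between members that were all higher. In the Schlafen cluster of chromosome 11, Slfn1 (8.03 and 15.1 RPKM) and Slfn9 (1.43 and 3.46 RPKM), which are not members, had higher log2 ratios, 0.83 and 0.87, than the members Slfn5, Slfn8 and Slfn2. Around Ifi204 the related genes AI607873 (187 and 206 RPKM), Mndal (60.4 and 55.6 RPKM) and Mnda (22.5 and 26.1 RPKM) differed little between the libraries, while Pydc3 (8.08 and 15.1 RPKM, log2 ratio 0.82) was higher in the clodronate library, as Ifi204 was. Next to Ifi27l2a on chromosome 12, its relative Ifi27 differed in the opposite direction, with 103 RPKM in the vehicle library and 45.1 RPKM in the clodronate library. Within 60 kb of a member lay 81 genes kept that are not members, with a median log2 ratio of 0.14. Of these 45 were higher, against 51.6% of all genes kept. By 3-fold or more 2 were higher and 1 was lower, against 2.86% and 2.32% of all genes kept. Some of these neighbors, such as Dtx3l, Sp110 and Mnda, are themselves among the other pathway genes described below. Values of near-identical copies, such as Oas1a and Oas1g, are uncertain because reads can match both, and those of members whose locus holds another gene, namely Adar, Slfn5 and Parp9, because how reads were divided is not given in the sources used here. Without these 3 locus-sharing members the median was 0.86 and 9 genes were again at least 3-fold higher.

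**Figure D4:**
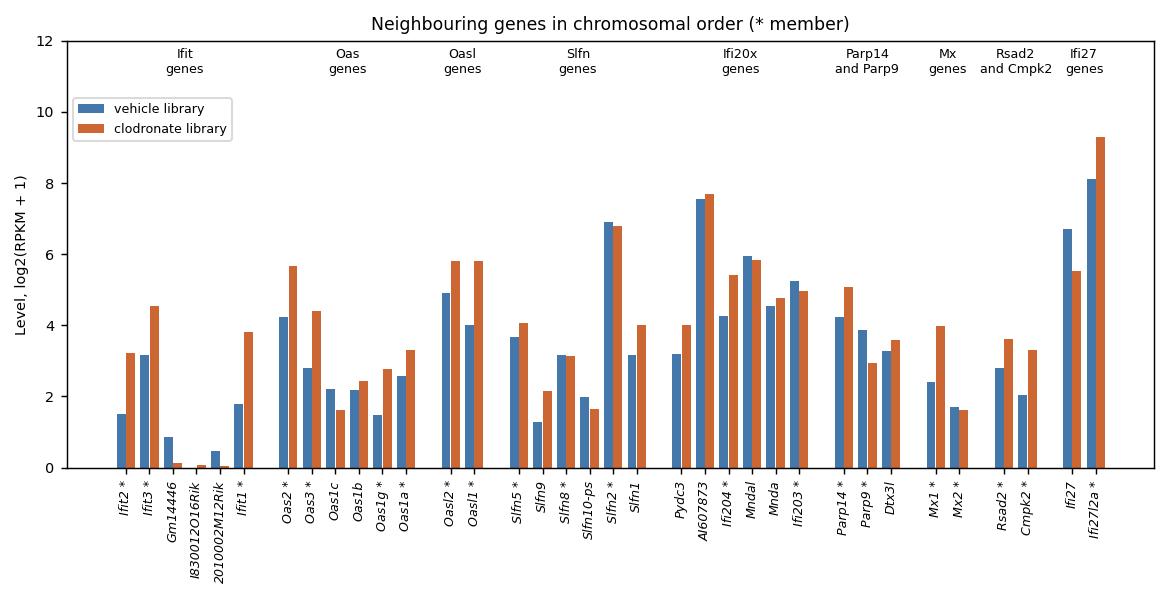
Level, as log2(RPKM + 1), in the vehicle (blue) and clodronate (orange) library of members (marked *) and neighboring genes in chromosomal order, with 1 library per bar. The orange bar is the taller one in all 3 Ifit and all 4 Oas members. Among the neighbors Gm14446, 2010002M12Rik, Oas1c, Slfn10-ps, Mndal and Ifi27 have the taller blue bar.

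The pathway above and around the members was examined with 117 further genes, all found, of which 96 were kept. Of these 67 were higher in the clodronate library (69.8% against 51.6% of all genes kept), with a median log2 ratio of 0.23 against 0.78 for the members. By 3-fold or more 4 were higher, against 2.86% of all genes kept, and 1 was lower, against 2.32%. Of the 18 interferon genes 16 were listed at 0 in both libraries, including Ifnb1 and all the Ifna genes examined. The exceptions were Ifnk, listed at 0 in the vehicle and at 5.91 RPKM in the clodronate library, and Ifng, the type II interferon, at 2.75 RPKM in the vehicle library and listed at 0 in the clodronate library. The receptors and their kinases had a median log2 ratio of -0.09 over 8 genes, and 0 reached 2-fold. Ifnar1 was at 46.2 and 50.3 RPKM, Ifnar2 at 76.7 and 95.9 RPKM, and Tyk2 at 17.4 and 20.9 RPKM. Jak2, which serves the receptor of interferon-gamma, was lower, at 19.9 and 11.8 RPKM. The receptors, adaptors and kinases upstream of interferon had a median of 0.12 over 15 genes, with Tbk1, the kinase that activates IRF3, at 49.2 and 28.3 RPKM and Ticam1, the adaptor of Toll-like receptor 3, at 7.02 and 12.2 RPKM.

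Among the 9 transcription factors Irf7, itself interferon-induced and the amplifier of the response, was the only one at least 2-fold higher, with a log2 ratio of 2.36. Irf9, a part of ISGF3, was at 23.6 RPKM in the vehicle library and 30.3 RPKM in the clodronate library, and the median of the group was 0.19. The 17 negative regulators had a median of 0.28, and 2 of them were at least 2-fold higher, as were 6.95% of all genes kept. These were Socs1, a feedback inhibitor of JAK kinases, at 0.714 and 3.15 RPKM, and Rnaseh2b at 5.09 and 14.3 RPKM. Rnaseh2b is a subunit of the nuclease that clears RNA from DNA. Trex1, the nuclease that removes cytoplasmic DNA, was at 40.6 and 77.2 RPKM.

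Genes known mainly as targets of interferon-gamma were evenly divided, with 7 of the 14 genes kept higher, a median log2 ratio of -0.04 and 1 gene at least 3-fold higher. Of all genes kept 51.6% were higher and 2.86% at least 3-fold higher. The gene at least 3-fold higher was Igtp, a GTPase of intracellular defence, at 4.19 RPKM in the vehicle library and 21.1 RPKM in the clodronate library. The Gbp genes were split, with Gbp3 (15.8 and 5.55 RPKM), Gbp2 (81.3 and 50.7 RPKM) and Gbp4 (4.78 and 2.18 RPKM) lower. Gbp5 was higher (3.22 and 8.99 RPKM) and Gbp7 differed little (6.12 and 6.32 RPKM). The chemokine Cxcl9 was lower (60.4 and 35.3 RPKM), and the chemokine Cxcl10, which answers to both kinds of interferon, was at 46.8 and 78.6 RPKM. The response element core was found in 8 of the 10 genes of this list with a promoter entry. Of 31 further interferon-induced genes 25 were higher, with a median of 0.46 and 1 gene at least 3-fold higher, Ly6a, a surface protein of progenitor and immune cells, at 21.1 and 153 RPKM. Ly6e had 560 and 817 RPKM and the entry inhibitor Ifitm3 had 861 and 1309 RPKM. No difference between these lists and the members was tested.

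**Figure D5:**
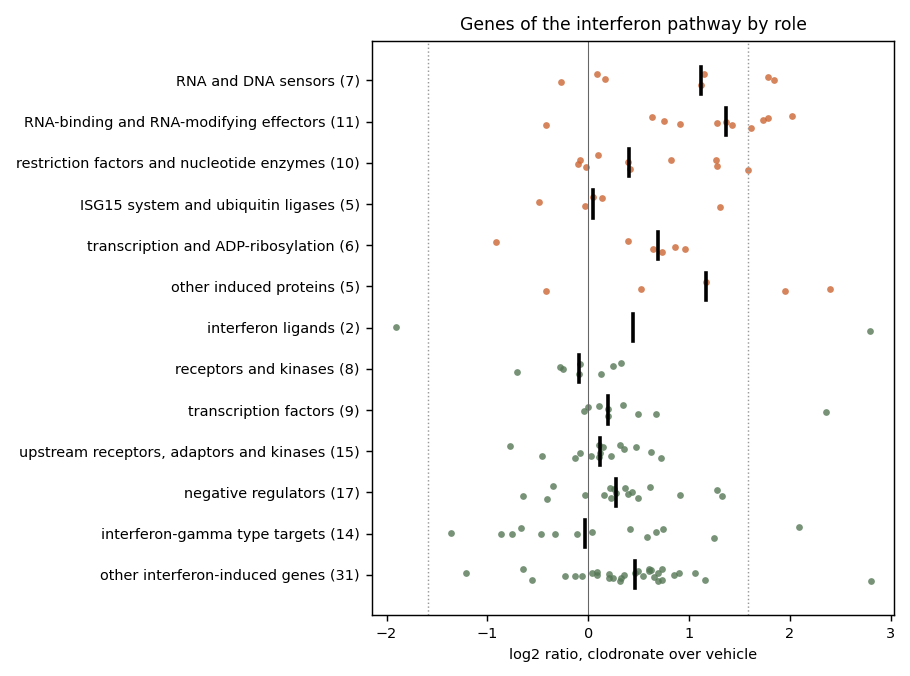
Log2 ratio of clodronate over vehicle for each gene kept of the 6 member groups (orange) and the 7 lists of other pathway genes (green), with the number of genes in brackets, a black bar at the median and dotted lines at 3-fold. The medians of the RNA effectors (1.37) and sensors (1.12) lie farthest right among the groups of more than 5 genes, while those of the receptors and kinases (-0.09) and the interferon-gamma type targets (-0.04) lie near 0.

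Markers of cell types that could be in the sort were set beside these values, and their part in the result was not tested. Of 10 macrophage markers 6 were higher and 4 lower in the clodronate library, 0 of them by 2-fold. The 7 monocyte markers summed to 1688 RPKM in the vehicle library and 2452 RPKM in the clodronate library, most of it Fn1, while Ly6c2 had 13.0 and 23.0 RPKM and Ccr2 48.5 and 37.8 RPKM. Of the markers of plasmacytoid dendritic cells, a main source of type I interferon, Siglech was at 0.033 RPKM in the vehicle library and at 0 in the clodronate library, and Klk1 was at 0 in each. Cox6a2 differed in the direction of most members, with 2.34 RPKM in the clodronate library against a listed 0 for vehicle. The 7 markers of this list summed to 27.3 and 40.6 RPKM, of which only Tcf4, at 26.8 and 37.9 RPKM, had more than 3 RPKM, and it is also used by other cells. The 7 markers of conventional dendritic cells summed to 6.73 and 18.8 RPKM, with Cd209a at 1.25 and 8.68 RPKM and Batf3 listed at 0 and at 5.77 RPKM. In the same list Ccr7 (3.36 and 2.31 RPKM) and Clec9a (0.979 and 0.421 RPKM) were lower and Zbtb46 had 1.05 and 1.09 RPKM. Cd3e, Cd3g and Ncr1 of T and NK cells had 0 in each library, and the 8 markers of these cells summed to 11.1 and 9.76 RPKM, most of it Cd4 (10.3 and 7.72 RPKM). The 5 neutrophil markers found summed to 43.1 and 45.1 RPKM. Of these S100a9 and Retnlg had 0 in each library. S100a8 was higher (12.7 and 23.1 RPKM), and Csf3r (26.4 and 19.3 RPKM) and Cxcr2 (4.06 and 2.69 RPKM) were lower. The sums of the 4 B cell markers were 2.99 and 1.74 RPKM, those of the 6 fibroblast markers 154 and 75.1 RPKM, those of the 5 endothelial markers 3.34 and 7.84 RPKM and those of the 5 epithelial markers 12.8 and 11.0 RPKM. Of 8 proliferation genes 7 were higher in the clodronate library and 6 at least 2-fold higher, as were 6.95% of all genes kept. Their median log2 ratio was 1.18, against 0.78 for the members, so higher values were not particular to the members. The sums were 234 and 329 RPKM, much of it Pcna (176 and 167 RPKM), the only one that was lower.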

How the data were processed

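The authors deposited RPKM values per gene locus for 2 libraries, 1 from vehicle and 1 from clodronate injection, with 23170 loci in each. The submitters' processing notes name CASAVA 1.8.2, TopHat2 2.0.9, Bowtie 0.12.9, Cufflinks 2.2.1, Cuffdiff and the build mm9, with no role or order. RPKM scale with the other genes of a library, and they are not counts, so no count model was used. Loci of 1 symbol were summed. Log2 ratios used a pseudocount of 1, and genes that averaged 1 RPKM or more were kept. At 1 library per condition no p-value was computed, and "called" genes passed 3-fold or 2-fold on this scale.

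The members and all gene lists were chosen with earlier results of these data known. Every gene of these lists could be named, and some results are not reported here. Neighbors within 60 kb of a member were examined, and the neighbors named or drawn were picked with their values known. The alternatives tried were 2-fold, a minimum of 5 RPKM or none, a pseudocount of 0.1, centred ratios, equal upper quartiles, the highest locus per symbol and ratios corrected for GC content and length in 10 bins each (GENCODE M21 transcripts). Leaving out Ifi44 or the members on shared loci was added after seeing the data. Promoters came from RefSeq (GRCm38.p6) and were never combined with mm9 coordinates. Of the 41 entries of the members, 16 began at the start of a GENCODE M21 transcript and 32 had the bases after their start in one, so positions relative to a start depend on the annotation. The steps were tested on simulated data with Python 3.11.15, numpy 2.4.6, pandas 2.3.3, scipy 1.17.1 and matplotlib 3.10.9.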

Additional observations from a re-analysis of the deposited data

How the results depend on the processing

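No paired analysis was possible because vehicle and clodronate are represented by 1 library each. The median log2 ratio of the members, 0.78, was 0.81 with ratios corrected for GC content and length (41 members with a value), 0.81 with a minimum of 5 RPKM (37 members), 0.87 with a pseudocount of 0.1, 0.77 after centring, 0.73 with the same upper quartile, 0.75 without Ifi44 and 0.86 without the members on shared loci. The members at least 3-fold higher were 9, and 18 with the 2-fold threshold. Under the other alternatives they were between 6, after the correction, and 10, with a pseudocount of 0.1, and 0 were at least 3-fold lower in every setting run. Oas3 was below 3-fold after the correction (log2 ratio 1.41) and with the same upper quartile (1.55), Mx1 after centring (1.57) and with the same upper quartile (1.53), and Oas1g passed 3-fold with a pseudocount of 0.1 (1.64). Slfn2 (0.036), Slfn8 (0.096) and Usp18 (0.049), all within 2-fold, were above 0 after the correction, which gave no value for Ddx60, Mx1 and Ifi203. Over all genes kept 314 were at least 3-fold higher and 255 lower. These counts were 532 and 480 with a pseudocount of 0.1, 127 and 101 with the minimum of 5 RPKM and 763 and 744 at 2-fold, settings that change by construction how many genes can pass. The read totals are unknown, and members of few reads, such as Isg20, Oas1g, Ifi44 and Mx2, carry the least certain ratios.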
